A study of Canis lupus familiaris with 8 samples.

Results

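The FOS and JUN families are the 7 genes FOS, FOSB, FOSL1, FOSL2, JUN, JUNB and JUND, chosen by gene symbol from the 37952 genes of the deposited count table. All 7 were in the table and all 7 passed the filter on low counts, which left 14571 genes for testing. Their proteins are basic leucine zipper (bZIP) transcription factors that bind DNA in pairs as AP-1. FOS proteins cannot pair with each other and bind DNA together with a JUN protein, whereas JUN proteins can also pair among themselves. Several of the genes are immediate-early genes, transcribed without new protein synthesis when a growth factor or stress signal reaches the cell. ERK, the last kinase of the cascade below the EGF receptor, activates transcription of FOS through the factors SRF and ELK1, and stabilises FOS and FOSL1 proteins, while JNK phosphorylates JUN.

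RNA came from MDCK GII cells, a line of dog kidney epithelial cells, grown overnight as a monolayer on a collagen-coated elastic silicone membrane. In 4 stretch wells the membrane was pulled by vacuum to an equal strain of 18% in both directions of its plane, held for 2 hours until lysis, and 4 wells labelled control were not strained. The series title concerns EGFR and ERK activation by force on E-cadherin, so the comparison asks whether the AP-1 genes, known outputs of ERK, differ after strain. The labels call the wells technical quadruplicates of 1 line, spread over several devices, so all errors and p-values describe the spread between wells only. They do not say whether wells with equal numbers shared a device, so the same-numbered pairs below are not a known pairing.

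Total counts lay between 27047358 and 32478887 per well. The epithelial markers were present in all wells, with CDH1, the gene of E-cadherin, at 583 to 641 CPM (counts divided by the TMM-scaled library total) in control wells and 597 to 645 CPM in stretch wells. Of 17 markers of fibroblasts, endothelium and leukocytes, 6 had 0 counts in every well, among them COL1A2, COL3A1 and PTPRC, and no list of the 3 summed to more than 4.22 CPM in a well. The summed level of 7 heat-shock and chaperone genes was 5127 to 5797 CPM in control wells and 5577 to 6553 CPM in stretch wells, higher after stretch in each same-numbered pair. Of the single genes, HSPA5 stood at 1353 to 2143 CPM in control and 1749.8 to 2696 CPM in stretch wells. The median log2 difference of the 7 was 0.03, 2 of them were higher in all 4 pairs (8.45% of all tested genes were), and edgeR called none. The part of these genes in the results below was not tested. Cell number and RNA content per cell cannot be told apart in such bulk libraries.

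All 7 genes had a higher mean after stretch, and the order of the differences ran from FOSB, at 3.01-fold, to JUND, at 1.16-fold. The 4 FOS family genes were higher in all 4 same-numbered pairs of wells, and the 3 JUN family genes in 3 of 4. Of all tested genes, 8.45% were higher in all 4 pairs. None of the 7 reached the threshold of 0.05 for the adjusted p of edgeR's quasi-likelihood test (Benjamini-Hochberg over 14571 genes), where 0% of all genes were called higher. At an unadjusted p under 0.05 in the same edgeR fit, 4 of the 7 were higher (FOSL2, FOSB, FOSL1 and FOS), beside 2.22% of all tested genes. The replicate number as a block raised the share of all genes called higher to 0.528% and called none of the 7, whose adjusted p then ran from 0.186 for FOSB to 0.722 for JUNB (edgeR). DESeq2 called FOSB and FOSL2 without the block, beside 0.220% of all tested genes. With the block, DESeq2 called FOS, FOSL1 and FOSL2, beside 1.04% of the 9768 genes to which it gave an adjusted p, and gave none for FOSB. The call for the FOS family therefore depended on the test, while the direction did not.

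**Figure D1:**
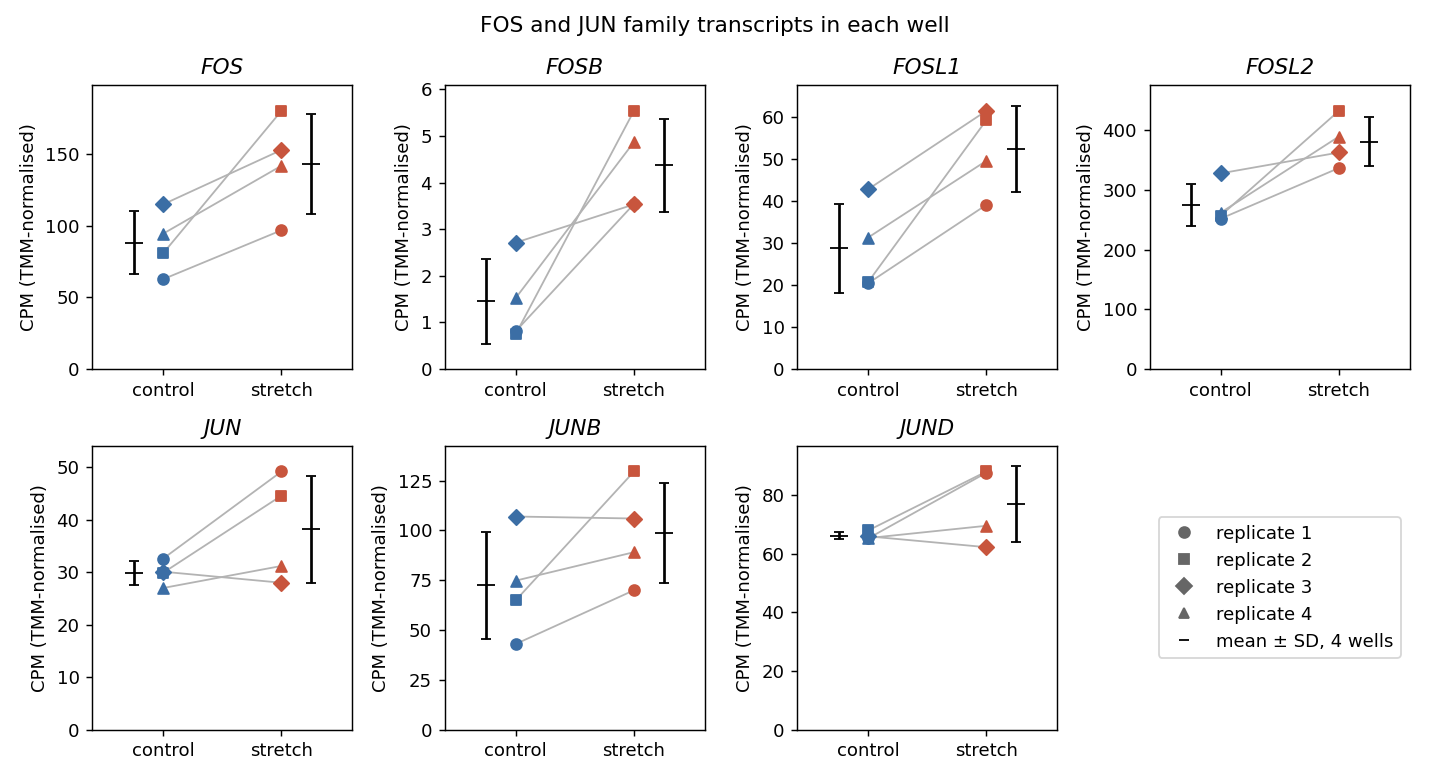
TMM-normalised CPM of each gene in each of the 8 wells (y axis from 0), with lines joining wells of the same replicate number and bars for the mean ± SD of 4 wells. FOSB and FOSL2 have every stretch well above every control well, and JUN has only stretch replicates 1 and 2 above every control well.

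FOS, the founding member of its family and a partner of JUN, lies on chromosome 8 (48649028 to 48652435, plus strand, 4 exons). Control wells 1 to 4 held 62.7, 80.8, 115 and 94.5 CPM, and stretch wells 1 to 4 held 96.9, 180.4, 153 and 142 CPM. Stretch replicate 1 fell inside the control range, and the other 3 stretch wells lay above every control well. The mean went from 88.2 ± 22 to 143 ± 34.8 CPM (SD, n = 4 wells each), a log2 difference of 0.70 ± 0.24 (SE; edgeR, unadjusted p = 0.0221, adjusted p = 0.999). With the replicate block the SE was 0.14 and the adjusted p was 0.262 in edgeR's test and 0.00159 in DESeq2's.

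FOSB, which encodes a FOS protein that is low in resting cells, lies on chromosome 1 (110800596 to 110804728, minus strand). It was the scarcest of the 7, with 22, 23, 80 and 49 raw counts in control wells 1 to 4 and 103, 150, 103 and 157 in stretch wells 1 to 4. These counts correspond to 0.808, 0.744, 2.71 and 1.52 CPM in control wells and 3.54, 5.54, 3.53 and 4.87 CPM in stretch wells. The groups did not overlap, although control replicate 3 stood close to the lowest stretch wells. The mean went from 1.45 ± 0.913 to 4.37 ± 1.00 CPM (SD, n = 4 each), a log2 difference of 1.59 ± 0.36 (SE; edgeR, unadjusted p = 0.00107, adjusted p = 0.472). DESeq2 without the block gave an adjusted p of 0.0038 for FOSB.

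FOSL1, the gene of FRA1, a FOS protein without a strong transactivation domain and a well-known output of sustained ERK activity, lies on chromosome 18 (51868548 to 51876244, plus strand). Control wells 1 to 4 held 20.4, 20.7, 42.8 and 31.3 CPM, and stretch wells 1 to 4 held 39.1, 59.3, 61.5 and 49.6 CPM. The overlap came from control replicate 3, which exceeded stretch replicate 1 but no other stretch well. The mean went from 28.8 ± 10.6 to 52.4 ± 10.2 CPM (SD, n = 4 each), a log2 difference of 0.86 ± 0.27 (SE; edgeR, unadjusted p = 0.0136, adjusted p = 0.999). With the block, the adjusted p of FOSL1 was 0.338 in edgeR's test and 0.00173 in DESeq2's.

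FOSL2, the gene of FRA2, lies on chromosome 17 (22372895 to 22396457, plus strand). Control wells 1 to 4 held 252, 257, 328 and 262 CPM, and stretch wells 1 to 4 held 337, 433, 363 and 389.8 CPM. The groups did not overlap, with control replicate 3 just under stretch replicate 1. The mean went from 275 ± 35.6 to 381 ± 41.0 CPM (SD, n = 4 each), a log2 difference of 0.47 ± 0.10 (SE), and FOSL2 had the smallest p of the 7 (edgeR, unadjusted p = 0.000727, adjusted p = 0.422). DESeq2 gave an adjusted p of 0.00229 without the block and 0.0208 with it. Of its 7209 exon bases, 108 overlap LOC119869693 on the opposite strand, a gene with 0 to 7 counts per well. Every stretch well exceeded every control well for FOSL2 and FOSB among the 7, and for 1.30% of all tested genes.

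Control replicate 3 was the highest control well for all 4 FOS family genes and for JUNB. Without this well, FOSB and FOSL2 passed in edgeR's test, with log2 differences of 2.07 and 0.57 and adjusted p of 0.0143 and 0.0144, beside 0.0814% of all genes tested then. Omission of the highest control well raises a difference by construction, so these calls are a description and no independent evidence. No other omission of a single well brought any of the 7 past the threshold in edgeR.

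JUN, the partner that JNK phosphorylates and the gene of the transactivator c-Jun, is a single-exon gene on chromosome 5 (51326980 to 51328311, plus strand). Control wells 1 to 4 held 32.6, 29.9, 30.1 and 27.0 CPM, and stretch wells 1 to 4 held 49.2, 44.6, 28 and 31.2 CPM. Stretch replicates 1 and 2 stood above every control well, and stretch replicates 3 and 4 lay within the control range. JUN went on average from 29.9 ± 2.30 to 38.2 ± 10.2 CPM (SD, n = 4 each), a log2 difference of 0.35 ± 0.17 (SE; edgeR, unadjusted p = 0.0652, adjusted p = 0.999). Without stretch replicate 1 the difference was 0.21.

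JUND, a JUN protein gene that is expressed steadily in many resting cells, has a single exon on chromosome 20 (45145944 to 45147789, plus strand). Its control wells 1 to 4 held 65.2, 67.9, 65.9 and 65.3 CPM, the tightest group of the 7 genes, with a coefficient of variation of 1.92%. Stretch wells 1 to 4 held 87.6, 88.0, 62.2 and 69.5 CPM. As with JUN, stretch replicates 1 and 2 were far above the controls, stretch replicate 4 was slightly above them and stretch replicate 3 was below them. Its mean went from 66.1 ± 1.27 to 76.8 ± 13 CPM (SD, n = 4 each), a log2 difference of 0.22 ± 0.10 (SE; edgeR, unadjusted p = 0.0521, adjusted p = 0.999). It was 0.15 without stretch replicate 1 and also 0.15 without stretch replicate 2.

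JUNB, the gene of a JUN protein with weaker transactivation that can restrain c-Jun, also has a single exon on chromosome 20 (49757409 to 49759245, minus strand). Control wells 1 to 4 held 43.0, 64.9, 107 and 74.8 CPM, and stretch wells 1 to 4 held 70.0, 129.6, 106 and 89.1 CPM. The groups overlapped widely, and control replicate 3 exceeded 3 of the 4 stretch wells. JUNB averaged 72.5 ± 26.8 CPM in control and 98.7 ± 25.3 CPM in stretch wells (SD, n = 4 each), so the difference was about as large as either SD. Its log2 value was 0.44 ± 0.30 (SE; edgeR, unadjusted p = 0.188, adjusted p = 0.999). It was 0.26 without control replicate 1, 0.69 without control replicate 3 and 0.29 without stretch replicate 2.

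The same-numbered pairs differed among themselves. The replicate 2 pair had the largest log2 difference for 5 of the 7 genes (FOS 1.16, FOSB 2.79, FOSL1 1.52, FOSL2 0.75, JUNB 1.00), and the replicate 1 pair for JUN (0.59) and JUND (0.43). The replicate 3 pair had the smallest for all 7, at 0.42 for FOS, 0.38 for FOSB, 0.52 for FOSL1 and 0.15 for FOSL2, and at -0.10, -0.02 and -0.08 for JUN, JUNB and JUND. In this pair the FOS family genes were higher after stretch and the JUN family genes were not.

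**Figure D2:**
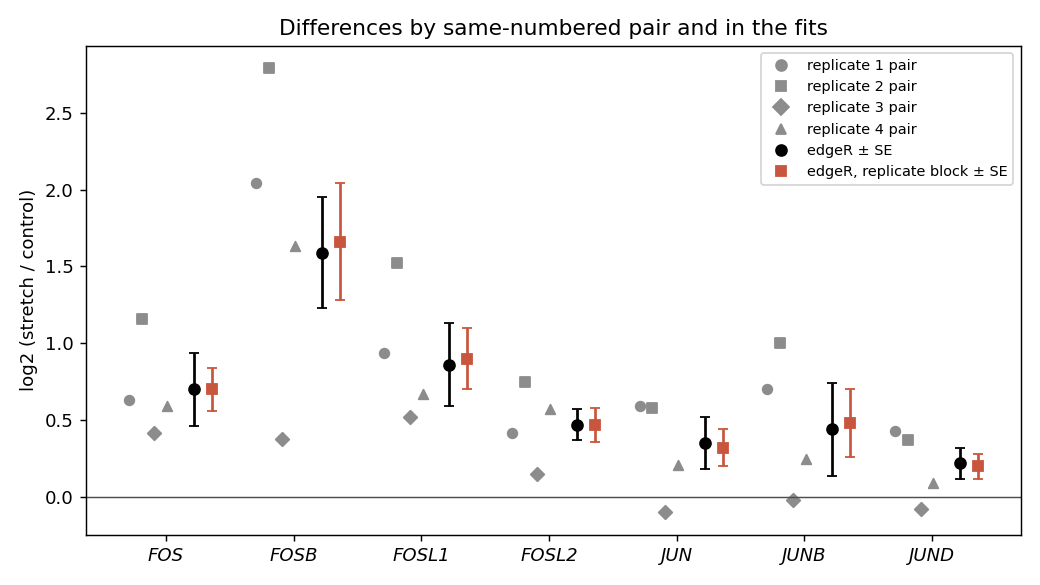
Log2 difference of stretch over control for each gene (y axis) in the 4 same-numbered pairs (grey) and in edgeR without and with the replicate block (black and red, estimate ± SE). All 4 pairs lie above 0 for the FOS family, and the replicate 3 pair lies just below 0 for JUN, JUNB and JUND.

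Wells with numbers 1 and 2 and wells with numbers 3 and 4 were also fitted apart, since this division of the 8 libraries was known from an earlier account of them. Because the division was seen in these libraries, its values are given here as a description, with no p. The calls of these fits are given only in the closing account of the alternatives, and are no independent evidence. In replicates 1 and 2 alone (2 wells against 2), the log2 differences were 0.95 ± 0.46 for FOS, 2.54 ± 0.30 for FOSB, 1.26 ± 0.24 for FOSL1 and 0.60 ± 0.13 for FOSL2 (SE, edgeR). JUN stood at 0.59 ± 0.08, JUNB at 0.88 ± 0.51 and JUND at 0.40 ± 0.06 there. In replicates 3 and 4 alone, FOS stood at 0.50 ± 0.08, FOSB at 1.01 ± 0.27, FOSL1 at 0.59 ± 0.19 and FOSL2 at 0.36 ± 0.09. JUN stood at 0.06 ± 0.10, JUNB at 0.11 ± 0.24 and JUND at 0.01 ± 0.07 in that set. The difference between these sets of wells was not tested.

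Across the 8 wells, the 4 FOS genes and JUNB varied together, and JUN and JUND were more like each other than like these 5. Pearson's r of log2 CPM among FOS, FOSB, FOSL1, FOSL2 and JUNB lay between 0.80 and 0.96. With the group means removed, r was 0.97 for FOS with JUNB and 0.89 for FOS with FOSL1, so these genes also went up and down together among wells of 1 group. JUN and JUND had an r of 0.96 over the 8 wells (Spearman's rho 0.67) and of 0.94 with the group means removed. Without the 2 wells farthest from the median of JUN, r fell to 0.46, so this relation rests mainly on stretch replicates 1 and 2. Of JUN and JUND with the other 5 genes, r lay between 0.10 (JUN with JUNB) and 0.51 (JUND with FOSL2) over the 8 wells, and between -0.39 and 0.10 with the group means removed. Without the 2 wells farthest from the median of FOSB, its r was 0.55 with JUN, 0.53 with JUND and 0.52 with JUNB, so the division into 2 sets was not seen for FOSB there. Without the 2 wells farthest from the median of FOSL2, its r with JUNB was 0.64. These values describe 8 libraries that share their treatment groups and carry no p.

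**Figure D3:**
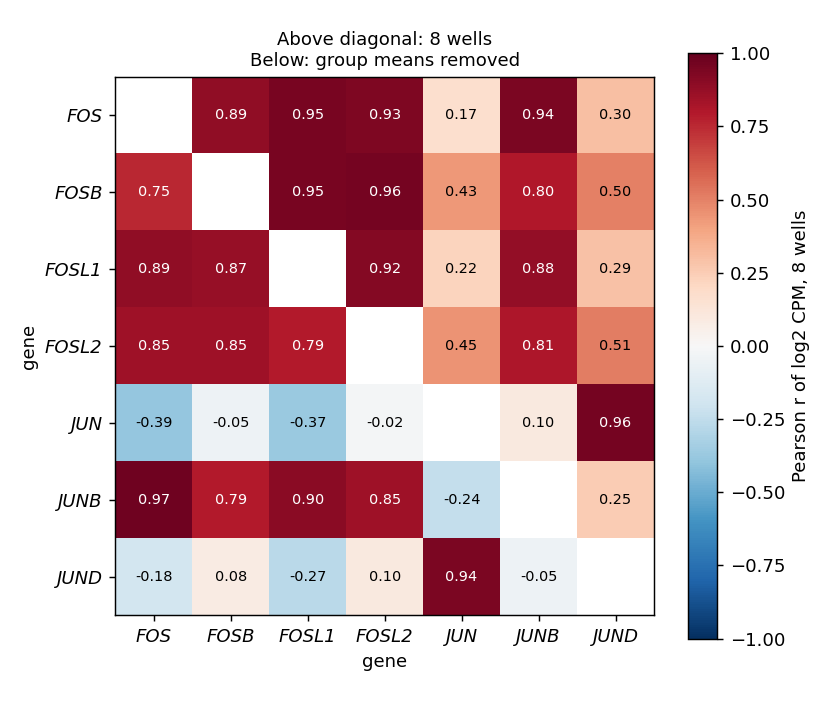
Pearson's r of log2 CPM between each 2 of the 7 genes over 8 wells, with all wells above the diagonal and with the group means removed below it. FOS, FOSB, FOSL1, FOSL2 and JUNB form 1 block of high values (0.75 or more on both sides), and JUN with JUND another (0.96 and 0.94).

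Levels were compared between genes as CPM per kilobase of exon (RPKM), over exon models of 1017 bases for FOSB to 7209 for FOSL2. Comparisons between genes, and the sums and shares below, depend on these models, whose completeness was not tested. In control wells FOS stood at 41.8 ± 10.4, JUNB at 39.5 ± 14.6, FOSL2 at 38.1 ± 4.93, JUND at 35.8 ± 0.688, JUN at 22.5 ± 1.72, FOSL1 at 12.3 ± 4.55 and FOSB at 1.42 ± 0.897 RPKM (SD, n = 4). The first 4 did not differ from their neighbours in this order beyond the larger SD, whereas JUND lay above JUN, JUN above FOSL1 and FOSL1 above FOSB in 4 of 4 control wells. After stretch the order of the means was the same, from FOS at 67.9 ± 16.5 to FOSB at 4.30 ± 0.986 RPKM. The distance between JUN (28.7 ± 7.67) and FOSL1 (22.4 ± 4.39 RPKM) was then within the SD of JUN.

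**Figure D4:**
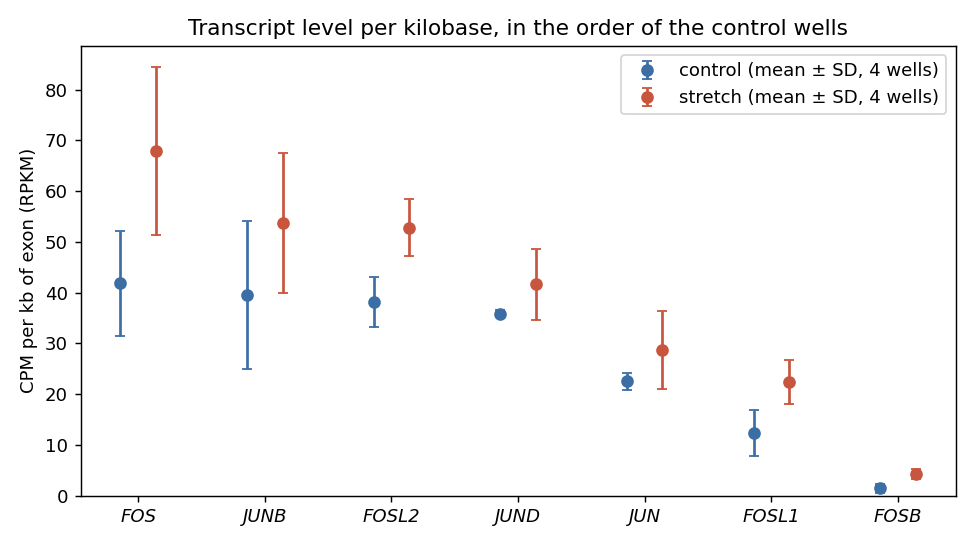
CPM per kilobase of exon (RPKM, y axis from 0) of each gene in control and stretch wells, as mean ± SD of 4 wells, in the order of the control means. The order of the means is the same in both groups, with FOS highest (41.8 and 67.9) and FOSB lowest (1.42 and 4.30).

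The summed level of the 4 FOS genes went from 93.7 ± 20.2 to 147 ± 26.2 RPKM, and that of the 3 JUN genes from 97.7 ± 14 to 124 ± 19.2 RPKM (SD, n = 4 each). The ratio of the FOS sum to the JUN sum was 0.892, 0.884, 1.04 and 0.996 in control wells 1 to 4 and 0.922, 1.16, 1.36 and 1.35 in stretch wells 1 to 4. It was higher after stretch in 4 of 4 pairs, with stretch replicate 1 inside the control range. Of the whole family's level, JUND made up 19.1 ± 3.20% in control wells and 15.5 ± 3.23% in stretch wells, lower in each of the 4 pairs. FOSB made up 0.704 ± 0.319% and 1.58 ± 0.238%, the latter higher in each pair, while the shares of FOSL2 (20.1 ± 1.51% and 19.5 ± 1.17%) and JUNB (20.1 ± 4.04% and 19.6 ± 2.61%) differed by less than the SD. These sums concern transcripts, not proteins or dimers.

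The genes with the most similar course over the 8 wells were sought among 13128 other tested genes with a mean of at least 1 CPM, by Pearson's r of log2 CPM. For FOSL2 they were CSRNP1 (r = 0.995) and DUSP1 (0.985), and for FOSB NR4A1 and CSRNP1 (both 0.962). CSRNP1 and NR4A1 encode transcription factors of the immediate-early class and DUSP1 a phosphatase that inactivates MAP kinases. For FOSL1 they were DUSP7, an ERK phosphatase gene (0.990), and SNAI2, the gene of the repressor SLUG (0.985), and for FOS the glucosylceramide synthase gene UGCG (0.978) and the phosphatase gene DUSP2 (0.977). For JUNB they were KLF10 (0.982), an early-response factor gene, and BMP4 (0.980), a growth factor gene. For these genes r stayed at 0.86 or above with the group means removed. For JUN they were SENP2 (0.953) and COQ7 (0.952), and for JUND SCRN3 (0.930) and TMEM25 (0.928). Without the 2 wells farthest from the median of JUND, its r with SCRN3 was 0.03. All these genes were picked as the highest of 13128 values over 8 wells, so the values are a description.

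Other genes of the AP-1 pathway were read from 5 lists. These lists were drawn up with earlier results of these data known, so their counts are a description and no independent evidence. Of all tested genes, 48.2% were higher and the median log2 difference was 0.00. The 7 family genes had a median of 0.47. None of the genes in these lists passed in edgeR without the block, where 0% of all genes passed. At an unadjusted p under 0.05, the genes that were higher numbered 0 of 18 kinases and SRF and ELK factors, 3 of 13 bZIP partners, 2 of 11 turnover and repression genes, 4 of 17 targets and 9 of 20 other immediate-early genes, beside 2.22% of all tested genes. A further gene, of the turnover list, was lower. DESeq2 without the block called 0, 0, 1, 2 and 3 of these lists higher, beside 0.220% of all tested genes. The calls named below are those of edgeR with the replicate block, which called 0.528% of all tested genes higher.

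Kinases above AP-1 and the SRF and ELK factors showed little difference at the transcript level. Of 18 tested genes, 9 were higher, the log2 differences ran from -0.14 to 0.10 around a median of 0.00, and none passed with the block. The 3 with the smallest p were MAPK14, a p38 kinase gene, at -0.09, RPS6KA1, the gene of an ERK-activated kinase, at 0.06, and ELK1 at 0.05. RPS6KA1 overlaps a gene on the opposite strand.

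Among 13 tested bZIP genes whose products pair with FOS or JUN proteins or bind related sites, 10 were higher, with a median of 0.08. ATF3, a stress-induced partner of JUN proteins, passed with the block. It went from 50.8 ± 15.1 to 77.4 ± 26.0 CPM (SD, n = 4 each), at 0.59 ± 0.06 with the block (edgeR, adjusted p = 0.000163) and 0.61 ± 0.30 without it (adjusted p = 0.999). The small MAF genes MAFF and MAFK, whose proteins lack a transactivation domain, stood at 0.61 and 0.25 without the block, and CREB5 at 0.32. These genes, named for their small p, were higher in 4 of 4 pairs and did not pass with the block (edgeR, adjusted p from 0.0674 to 0.265). DESeq2 with the block called MAFK higher (adjusted p = 0.0487), beside 1.04% of the genes to which it gave an adjusted p. Of the 13 genes, 4 were higher in all 4 pairs and 1 was lower in all 4, and 8.45% of all tested genes were higher in all 4. BATF, MAF and MAFA had at most 9 counts in any well and were not tested.

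Of 11 tested genes that limit AP-1 through turnover of its proteins or mRNAs or through its kinases, 4 were higher and the median was -0.02, and none passed with the block. DUSP1 went from 19.4 ± 3.75 to 33.7 ± 6.03 CPM (SD, n = 4 each) with no overlap between the groups (edgeR, adjusted p = 0.307 without the block and 0.115 with it). Every stretch well exceeded every control well for 1.30% of all tested genes. DESeq2 called DUSP1 higher, with an adjusted p of 0.000124 without the block and 0.0025 with it. Its exons overlap a gene on the opposite strand, and how strand was counted is not given in the sources used here. ZFP36, whose protein binds AU-rich mRNAs and hastens their decay, stood at 0.26 and was higher in 4 of 4 pairs (edgeR with the block, adjusted p = 0.0782). Of the 11 genes, 2 were higher and 2 were lower in all 4 pairs, and 8.45% of all tested genes were higher in all 4.

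Of the 26 textbook AP-1 target genes, 17 were tested and 13 of these were higher, with a median of 0.12. With the block, 3 of the 17 passed, all higher, beside the same 0.528%: HBEGF, an EGFR ligand gene, LIF, a cytokine gene, and VEGFA, the gene of an endothelial growth factor. VEGFA went from 21.1 ± 4.29 to 30.4 ± 4.75 CPM (SD, n = 4 each), at 0.53 ± 0.06 (SE; edgeR with the block, adjusted p = 0.000611). The LIF means were 4.12 ± 0.659 and 6.85 ± 1.11 CPM, with an adjusted p of 0.0147 in the blocked edgeR fit. LIF lost this call when pair 1 or pair 2 was left out (edgeR, adjusted p = 0.141 and 0.0773), whereas HBEGF and VEGFA kept theirs whichever pair was left out. HBEGF went from 20.9 ± 3.36 to 36.4 ± 5.93 CPM. The metalloproteinase genes MMP1, MMP3, MMP7 and MMP9, which AP-1 drives in many cells, had at most 4 counts in any well.

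The list whose median lay nearest to that of the 7 genes held 20 other immediate-early transcription factor genes. Of these, 18 were higher, the median was 0.42, and 13 were higher in all 4 pairs, beside 8.45% of all tested genes. With the block, 5 of the 20 passed, all higher, beside 0.528% of all tested genes, namely ATF3, CSRNP1, EGR1, KLF6 and NR4A3. When 1 pair was left out of this fit, ATF3 and EGR1 kept the call each time. NR4A3 lost it without pair 1, 2 or 4 (edgeR, adjusted p from 0.0763 to 0.326). CSRNP1 lost it without pair 1 or 4 (0.164 and 0.211) and KLF6 without pair 4 (0.0571). EGR1, a zinc-finger factor gene that ERK induces through SRF and ELK factors as it does FOS, went from 223 ± 23.7 to 299 ± 43.9 CPM (SD, n = 4 each), at 0.42 ± 0.05 (SE; edgeR with the block, adjusted p = 0.00169). KLF6 stood at 219 ± 32.4 and 272 ± 33.9 CPM, a difference of 0.32 ± 0.05 (SE; edgeR with the block, adjusted p = 0.00311). KLF4 and NR4A2 stood at 0.72 and 0.74 without the block and did not pass with it (edgeR, adjusted p = 0.124 and 0.0645).

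**Figure D5:**
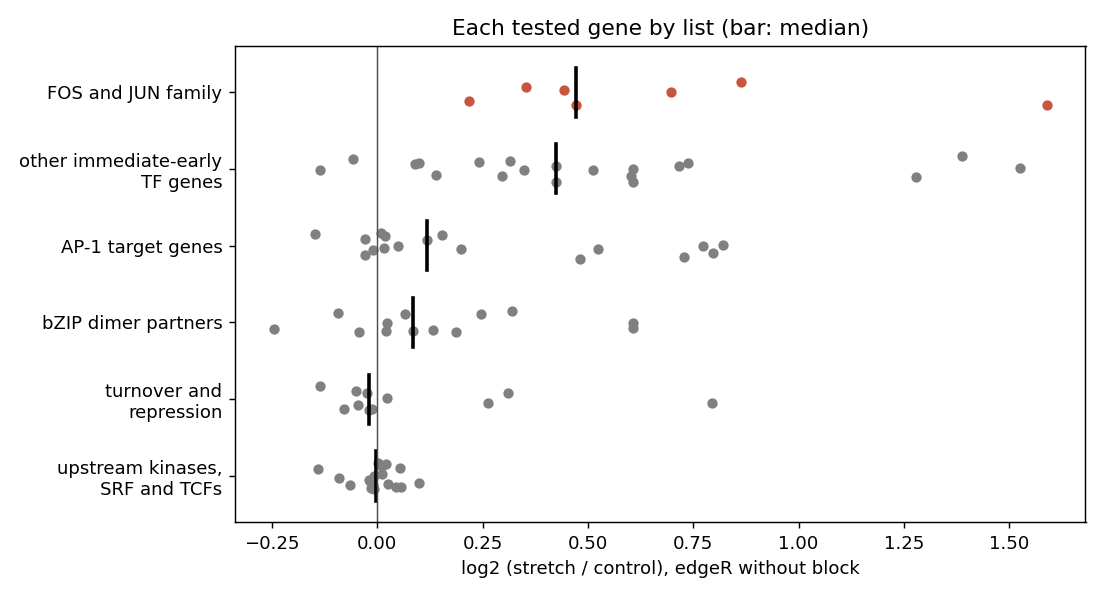
Log2 difference of stretch over control in edgeR without the block (x axis) for each tested gene of the 7 AP-1 family genes and 5 related lists, with a bar at each median. The family (median 0.47) and the other immediate-early genes (0.42) lie to the right of 0, and the upstream kinases and SRF and ELK factors lie between -0.14 and 0.10.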

How the data were processed

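The authors deposited 1 table of raw exon counts per gene from polyA-selected stranded libraries, per the labels. FastQC 0.11.8, Trim Galore 0.6.5, STAR 2.7.3a, Subread and featureCounts are named in the submitters' processing notes. The strand setting and the treatment of multi-mapping reads are not given in the sources used here. Positions are those of the deposited table, which names no build; 37291 symbols matched RefSeq's UU_Cfam_GSD_1.0 table, all 37291 at identical positions, which gave the chromosome names.

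Counts were tested in R 4.3.3 with edgeR 4.0.16 (quasi-likelihood, robust, TMM, filterByExpr with a minimum count of 10 and total of 15, two-sided, Benjamini-Hochberg over all tested genes, threshold 0.05), with stretch as the only term. SE is the log2 difference divided by the root of F. Log2 CPM used a prior count of 2. Scripts were tested on simulated data. Same-numbered wells deviated together from their group means over all genes (r = 0.328, 0.108, 0.182 and 0.178 for numbers 1 to 4), so a fit blocked on this number is given where it changes a count. The labels do not state that equal numbers shared a device, so this pairing was taken from the same counts that were tested. Other alternatives were DESeq2 1.42.0, limma-voom (limma 3.58.1), other scalings and filters, a block of 2 levels and omitted wells. The members, lists and alternatives were chosen with earlier results of these data known. Named list genes were those past the threshold with or without the block and the 3 with the smallest p; some are not reported here. Figures used matplotlib 3.10.9.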

Additional observations from a re-analysis of the deposited data

Results flagged for a closer look

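Single wells were compared with the other 3 of their group by the ratio of the gap to the range (Dixon's test at the 95% level). Over the 7 family genes and 19 named list genes, 4 of 52 groups exceeded it, where chance gives about 2.6. For FOSL2, control replicate 3 held 328 CPM and the other control wells 252 to 262. For CSRNP1, the same well held 43.2 CPM against 33.2 to 34.7. For HBEGF, control replicate 1 held 15.9 CPM against 21.9 to 23.0. For CREB5, stretch replicate 4 held 9.15 CPM against 8.55 to 8.61.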

How the results depend on the processing

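All 7 family genes were higher after stretch in each of the 23 alternatives run, and none of the 160 values reversed. Of these, 143 stayed on the same side of the threshold as in edgeR without the block and 17 passed it. DESeq2 called 32 genes higher and 8 lower, and of the family 2 (FOSB 1.59, FOSL2 0.47). Without a filter on low counts edgeR called 8 higher and 3 lower. With the replicate block edgeR called 77 higher and 25 lower and none of the family; DESeq2 with this block called 102 higher and 43 lower, and of the family 3 (FOS 0.70, FOSL1 0.91, FOSL2 0.47). A block of 2 levels gave 41 higher and 17 lower and none of the family. Replicates 1 and 2 alone gave 43 higher and 8 lower, and of the family 3 (FOSB 2.54, JUN 0.59, JUND 0.40). Replicates 3 and 4 alone gave 14 higher and 11 lower, and of the family 1 (FOS 0.50). This division was known from these libraries, so its calls are no independent evidence. The cause of these differences was not tested.

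With 1 well left out, edgeR called 0 to 12 genes higher and 0 lower, and 0 to 2 of the family, the 2 without control replicate 3. The log2 differences then ran from 0.57 to 0.85 for FOS, 1.37 to 2.07 for FOSB, 0.73 to 1.12 for FOSL1, 0.41 to 0.57 for FOSL2, 0.21 to 0.48 for JUN, 0.26 to 0.69 for JUNB and 0.15 to 0.31 for JUND. With the replicate block and 1 pair left out, edgeR called 33, 57, 146 and 49 genes higher without pairs 1 to 4 in turn, 10 to 40 lower, and 0 to 4 of the family. The ranges were then 0.55 to 0.79 for FOS, 1.31 to 2.18 for FOSB, 0.70 to 1.03 for FOSL1, 0.38 to 0.58 for FOSL2, 0.23 to 0.46 for JUN, 0.30 to 0.65 for JUNB and 0.13 to 0.30 for JUND. Without the replicate 2 pair, FOS and FOSL1 passed (0.55 and 0.70; edgeR, adjusted p = 3.27e-05 and 7.25e-05). Without the replicate 3 pair, FOSB, FOSL2, JUN and JUND passed (2.18, 0.58, 0.46 and 0.30; edgeR, adjusted p from 7.89e-07 to 0.00602). RPS6KA1 reversed from 0.06 to -0.03 in replicates 3 and 4 alone and to -0.00 with the block without the replicate 1 pair, and no value passed. Limma-voom, DESeq2 size factors, library size only and at least 10 counts in every well called none of the family. FOSB had the fewest counts of the 7, from 22 to 157 per well.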
